A study of Mus musculus with 6 samples.

Results

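The expression of 35 genes of DNA replication and S phase was examined in femoral bone marrow of mice with and without hindlimb unloading. The genes were taken by name and not by a threshold on their values, though earlier results of these data were known. All 35 were found among the 54532 genes of the count table. All 35 were also among the 15015 genes with enough counts to test, with between 81 and 6297 counts per gene and library. RNA-seq libraries were made from total RNA of freshly isolated marrow cells of wild-type (WT) mice. The control group held 3 libraries from mice that received no treatment. The unloaded group held 3 libraries from mice treated with hindlimb unloading for 4 weeks, in which the hind limbs bear no weight, used by the study to induce osteoporosis and titled OP-HU; bone mass was not analysed here. The labels give neither ages nor the number of animals behind a library, and they do not say that the libraries of a group came from separate animals. The p-values below therefore speak only to the spread among these 6 libraries, which may be technical.

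A cell copies its genome once per division. In G1 phase the loaders CDC6 and CDT1 place rings of the MCM2 to MCM7 proteins on DNA, and at S phase CDC45 and the GINS complex turn each ring into an active helicase. Polymerases then copy both strands behind the fork, held in place by the sliding clamp PCNA, while ribonucleotide reductase and thymidylate synthase supply the building blocks. Most of these genes are switched on together at the G1 to S boundary by E2F transcription factors, and in marrow they mark dividing precursors of red cells, granulocytes and B cells, since mature neutrophils do not divide.

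Because E2F factors are known as shared regulators of this group, the promoters were searched for 4 forms of the E2F site, TTTCCCGC, TTTGGCGC, TTTCGCGC and TTTGCCGC, on both strands. RefSeq promoters of build GRCm38.p6 (250 bases before to 50 after the start) were found for 29 of the 35 genes. At least 1 site lay in that window in 11 of the 29 genes, or 37.9%, against 2.6% of 27025 genes with a promoter in the table. In the 250 bases before the start alone it was 7 of 29 genes (24.1%, against 2.16%). The 27025 genes were not limited to those tested here and were not matched for GC content, so the contrast is a description. The letters of the 4 forms can overlap one another, as the capitals in the stretches from Mcm5 and Mcm6 show. The CCAAT box, searched as CCAAT, lay in 18 of 29 windows (62.1%, against 41.1% of all genes). The CHR element typical of mitotic genes, searched as TTTGAA and TTCGAA, lay in 5 of 29 (17.2%, against 21.7%). A match describes the letters of the window and not a bound site. The stretches below are those E2F matches that lie upstream of the start and outside the gene as listed in the count table, with the matches in capitals, read 5′ to 3′ on the strand of the gene. The Mcm5 stretch is on the plus strand at chr8:75109336-75109387, and its first match begins 153 bases before the start. The Mcm6 stretches are on the minus strand at chr1:128359784-128359835 and chr1:128359725-128359772, with matches beginning 110 and 47 bases before the start. The Pola1 stretch is on the minus strand at chrX:93632266-93632313.
Mcm5: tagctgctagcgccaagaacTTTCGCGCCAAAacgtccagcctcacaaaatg
Mcm6, distal: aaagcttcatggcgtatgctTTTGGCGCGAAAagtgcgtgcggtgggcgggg
Mcm6, proximal: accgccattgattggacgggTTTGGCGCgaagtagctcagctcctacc
Pola1: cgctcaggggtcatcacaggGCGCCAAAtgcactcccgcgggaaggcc

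Library totals ran from 16727836 to 17775506 counts in controls and from 15850986 to 16543465 in unloaded samples (two-sided exact permutation p = 0.1, the smallest that 3 against 3 allows). The unloaded 1 library stood apart from the other 5. Over all tested genes its log2 CPM values (counts scaled to the library size after TMM normalization) deviated from the mean of the other 5 libraries with an SD of 0.503, against 0.341 to 0.367 for each other library. Its share of counts from mitochondrial genes was 0.439%, where the other libraries had 1.05% to 1.27%. Results are therefore given with and without it. Markers of marrow lineages were all detected in every library, from erythroid precursors (12 of 12 genes) to pro-B and pre-B cells (12 of 12) and neutrophil progenitors (9 of 9). Skeletal muscle genes summed to 4.32 to 7.26 CPM, with Myh4 at 0 in all libraries.

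No replication gene passed the test for a difference between unloaded and control marrow. None of the 35 was called by the quasi-likelihood test of edgeR at an adjusted p of 0.05, the smallest adjusted p being 0.877, for Gins2. The background in that test was 0% of 15015 genes, and 0 members were also called by DESeq2 (background 0.233%) and by limma-voom (0%). At an unadjusted p under 0.05 there were 0 members with edgeR (background 5.85%), 0 with DESeq2 (5.27%) and 0 with limma-voom (5.8%). Log2 fold changes ran from -0.34 for Fen1 to 0.19 for Pold1, with 17 members positive and 18 negative, and 51.2% of all tested genes were positive. The median was -0.0091, against 0.0054 over all tested genes. For 26 members the standard error was larger than the fold change itself, and for the other 9 the fold change was the larger.

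The intervals show how much change these libraries leave room for. The 95% interval of the edgeR fold change lay within 1.5-fold in both directions for 33 of 35 members, against 55.4% of all tested genes, which include many of lower count. The exceptions were Gins2 and Fen1, whose intervals reached down to log2 values of -0.66 and -0.78. The highest upper bound was 0.47, for Rfc4, which corresponds to 1.39-fold. A p above the threshold does not show that the groups are alike, and the intervals give the sizes that these libraries cannot resolve. These intervals are for single genes and carry no adjustment for the number of genes. In bulk RNA, fewer dividing cells and less RNA per cell cannot be told apart.

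**Figure D1:**
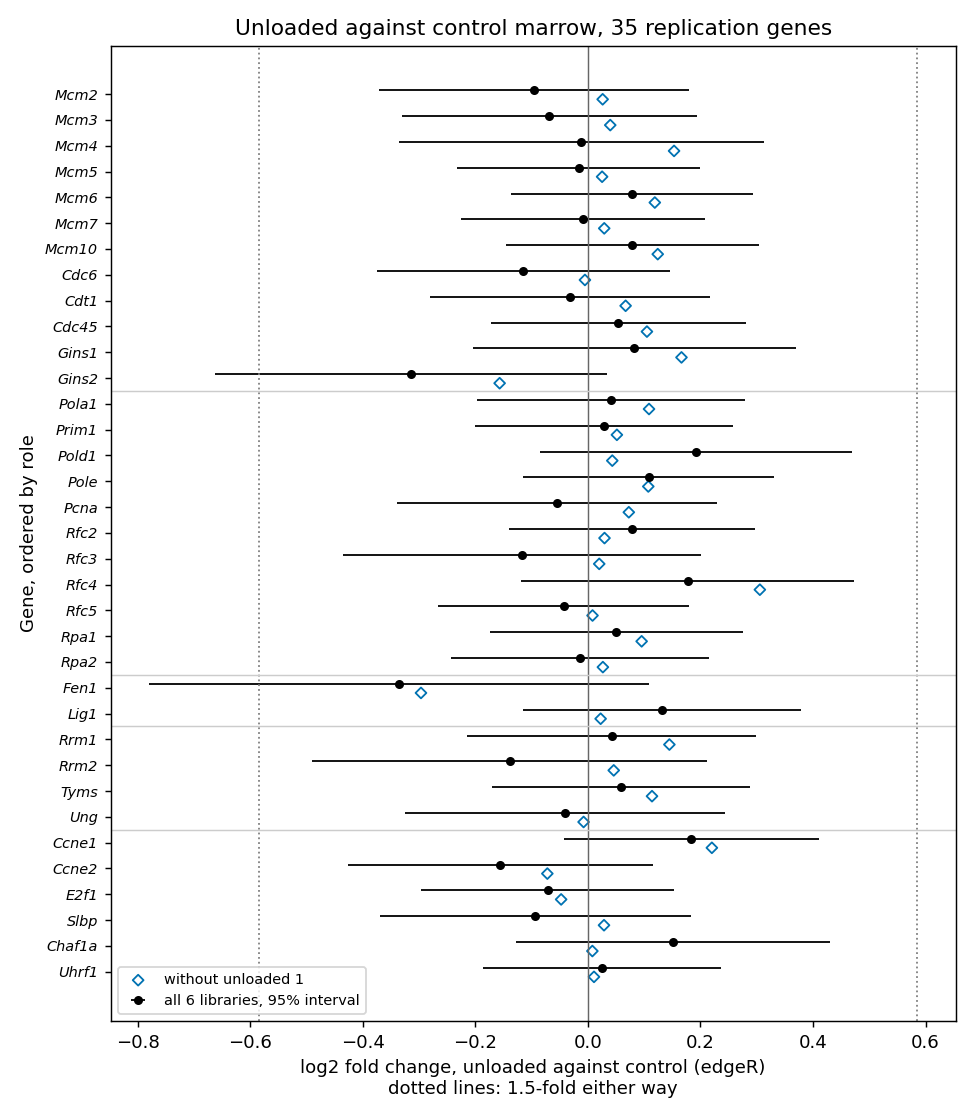
Log2 fold change of unloaded against control marrow for each of the 35 genes, ordered by role, on the horizontal axis. Black points with bars are edgeR estimates with 95% intervals from 6 libraries, open diamonds the estimates without the unloaded 1 library, and dotted lines mark 1.5-fold either way; 33 of 35 bars stay between the dotted lines.

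The helicase and its loading factors make up 12 of the members. Levels between genes were compared as RPKM, the CPM per kilobase of the listed gene length. That length counts all annotated exonic bases of a gene, so ranks per length depend on the annotation and can differ from ranks by CPM. The ring subunits were high in controls, from 38.5 ± 1.51 RPKM for Mcm2 to 84.1 ± 2.24 for Mcm5 (SD, n = 3). The loader Cdt1 (46.3 ± 0.336) lay within that range, above Mcm2. The other loader Cdc6 (16.6 ± 0.508) was below all ring subunits, as were Cdc45 (18.5 ± 0.823), Gins1 (14.5 ± 0.275), Mcm10 (8.53 ± 0.345), which helps fire the helicase, and Gins2 (6.22 ± 0.155). Mcm5, Mcm7 and Mcm6 followed one another at 84.1, 74.3 and 70.9 RPKM, and Mcm6 did not differ from Mcm3 (69.8 ± 2.16) beyond their spread. In this role 4 log2 fold changes were positive and 8 negative, with a median of -0.014.

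Mcm5 (ENSMUSG00000005410, mm10 chromosome 8, 75109569 to 75128439) was at 338, 343 and 326 CPM in controls 1 to 3 and at 313, 342 and 341 CPM in unloaded 1 to 3. The groups overlapped, and the log2 fold change was -0.016 ± 0.098 (SE). Mcm4 was at 194, 180 and 190 CPM in controls and 141, 214 and 204 CPM in unloaded samples, so that unloaded 1 was the lowest and the other unloaded libraries the highest of the 6. Cdc6 was at 84.2, 87.0 and 89.6 CPM and at 67.7, 86.3 and 86.9 CPM (log2 -0.11 ± 0.12), with only unloaded 1 below the control range. Cdt1 had the second smallest spread among controls, at 146, 144 and 146 CPM, and stood at 122, 157 and 147 CPM after unloading.

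Gins2 (ENSMUSG00000031821, chromosome 8, 120578633 to 120589304) encodes a subunit of the GINS complex. It was at 24.8, 25.7 and 25.96 CPM in controls and 15.7, 22.6 and 23.1 CPM after unloading, so every unloaded value lay below every control value. The log2 fold change was -0.31 ± 0.16 (edgeR unadjusted p = 0.0722). Without unloaded 1 it was -0.16 ± 0.11. Of its exonic bases 67.3% are shared with Gse1 on the other strand in the GENCODE M21 annotation, and no source used here states the strand setting of the counting. If strand was not used, reads from the shared bases cannot be told apart, so the count of Gins2 and its level per length are uncertain.

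Polymerase, clamp and single-strand binding genes make up 11 members. Pcna, the sliding clamp, had the highest level per length of all 35 genes with control libraries at 134 ± 3.90 RPKM and unloaded ones at 129 ± 21.6 RPKM (SD, n = 3). In CPM it stood at 321, 331 and 312 in controls and at 252, 323 and 353 after unloading, which again put unloaded 1 lowest. The catalytic subunits of polymerase delta (Pold1, 37.9 ± 0.695 RPKM), primase (Prim1, 13.6 ± 0.485), polymerase alpha (Pola1, 8.11 ± 0.420) and polymerase epsilon (Pole, 6.72 ± 0.395) were lower than the clamp. The clamp loader genes Rfc2 to Rfc5 lay between 8.68 RPKM (Rfc3) and 22.5 RPKM (Rfc4), and the single-strand binding genes Rpa1 and Rpa2 at 26.3 ± 1.57 and 22.4 ± 1.29 RPKM. In this role 7 of 11 fold changes were positive, with a median of 0.040.

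Pold1 (ENSMUSG00000038644, chromosome 7, 44532746 to 44548849) was at 186, 180 and 186 CPM in controls and 252, 193 and 186 CPM in unloaded samples. The groups did not overlap, but unloaded 3 exceeded control 3 by less than the spread of the controls, and the log2 fold change of 0.19 ± 0.13 was 0.043 ± 0.079 without unloaded 1. Rfc4 (ENSMUSG00000022881, chromosome 16, 23113943 to 23127737) had the smallest spread of any member among controls, at 34.5, 34.4 and 34.6 CPM, and stood at 31.7, 41.9 and 43.3 CPM after unloading. Its log2 fold change was 0.18 ± 0.13 with all libraries and 0.31 ± 0.092 without unloaded 1 (edgeR unadjusted p = 0.00676, adjusted p = 0.372). Eif4a2 on the other strand shares 12.7% of its exonic bases.

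Strand maturation is represented by Fen1, the flap endonuclease that trims the ends of lagging strand fragments, and Lig1, the ligase that seals them. Fen1 (ENSMUSG00000024742, chromosome 19, 10199132 to 10204169) had the lowest level per length of the group with control libraries at 2.85 ± 0.220 RPKM and unloaded ones at 2.26 ± 0.253 RPKM (SD, n = 3). It was at 7.49, 6.75 and 6.46 CPM in controls and at 5.16, 5.07 and 6.17 CPM after unloading, and the groups did not overlap. Its log2 fold change was -0.34 ± 0.20 (edgeR unadjusted p = 0.123), or -0.30 ± 0.21 without unloaded 1. Of its exonic bases 84.2% are shared with Tmem258 and Gm10143 on the other strand, the largest share among the members. As for Gins2, its count is therefore uncertain, and so are its level per length and its rank as lowest. Lig1 was at 192, 194 and 189 CPM in controls and at 240, 198 and 191 CPM after unloading, with unloaded 1 the highest of the 6.

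Nucleotide supply and uracil removal make up 4 members. Rrm2, the small subunit of ribonucleotide reductase whose amount follows S phase, was second only to Pcna per length among the members, with control libraries at 107 ± 2.15 RPKM and unloaded ones at 96.9 ± 23.0 RPKM (SD, n = 3). It was at 289, 297 and 300.4 CPM in controls and at 195, 305 and 305 CPM after unloading. Unloaded 1 thus lay far under the other 5 libraries, which sat close together. The large subunit Rrm1 (31.2 ± 0.908 RPKM in controls), thymidylate synthase Tyms (9.74 ± 0.345) and the uracil glycosylase Ung (3.73 ± 0.223) had log2 fold changes of 0.042 ± 0.12, 0.059 ± 0.10 and -0.041 ± 0.13. By CPM Rrm1 (listed length 11012 bases) had a control mean of 343, against 296 for Rrm2 (2771 bases). Ung was at 19.3, 21.7 and 20.3 CPM in controls and at 18.9, 21.4 and 19.2 CPM after unloading.

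The remaining 6 members act in G1 to S control, histone supply and chromatin. Ccne1 (ENSMUSG00000002068, chromosome 7, 38097984 to 38107534) encodes cyclin E1, which activates CDK2 for entry into S phase. It was at 56.0, 50.6 and 56.0 CPM in controls and at 58.4, 64.0 and 62.2 CPM after unloading, without overlap. The log2 fold change was 0.18 ± 0.10 (edgeR unadjusted p = 0.102, adjusted p = 0.883) and 0.22 ± 0.089 without unloaded 1 (unadjusted p = 0.0309, adjusted p = 0.497 by edgeR). Its paralog Ccne2 was at 40.9, 36.2 and 39.4 CPM and at 30.6, 35.3 and 38.6 CPM, overlapping between groups, with a log2 fold change of -0.16 ± 0.12. The difference between the paralogs was not tested.

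Chaf1a, the large subunit of the chaperone that deposits new histones behind the fork, was at 78.1, 79.0 and 73.2 CPM in controls and 101, 74.6 and 79.7 CPM after unloading. Only unloaded 1 lay above the controls by more than their spread, and without it the log2 fold change went from 0.15 to 0.0078. Its exons share 52.5% of their bases with Ubxn6 on the other strand, so its count is uncertain too. Uhrf1, which carries DNA methylation over to the new strand, was high at 63.1 ± 2.61 RPKM in controls and 64.2 ± 1.47 in unloaded samples, and had the smallest spread of any member in the unloaded group. It was at 277, 273 and 256 CPM in controls and at 279, 275 and 267 CPM after unloading, so the groups overlapped. E2f1 encodes a founding member of the E2F family and had the next smallest spread in that group. It was at 59.9, 66.5 and 65.7 CPM in controls and at 58.9, 59.7 and 64.1 CPM after unloading (log2 -0.072 ± 0.10). Slbp, whose product binds histone mRNA, had a log2 fold change of -0.093 ± 0.13.

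**Figure D2:**
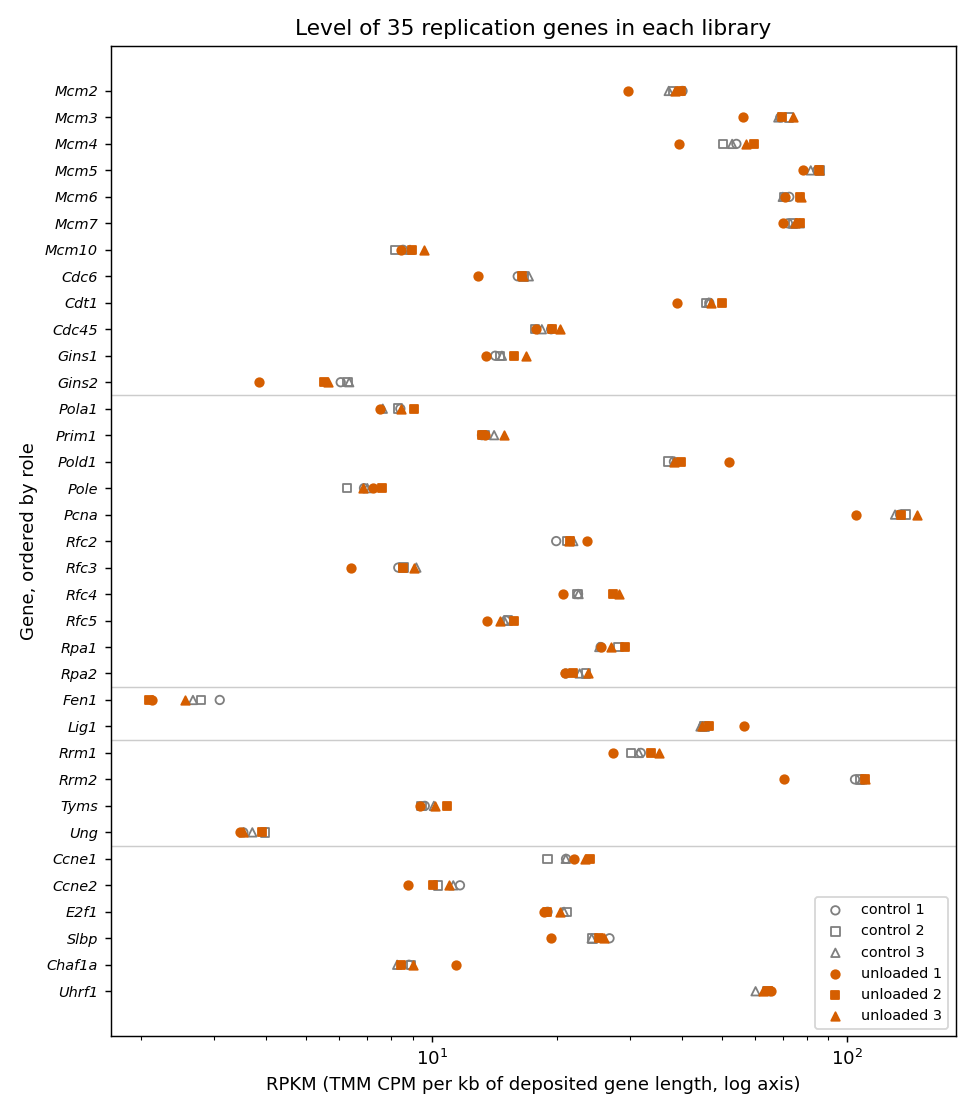
Level of each gene in each of the 6 libraries as RPKM on a log axis, ordered by role, with open grey symbols for controls and filled orange symbols for unloaded samples; no error bars are drawn because every library is shown. The circle of unloaded 1 lies left of the other symbols for genes such as Rrm2, Pcna and Mcm4 and right of them for Pold1, Lig1 and Chaf1a.

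Groups that did not overlap were seen for 4 members, 2 higher in unloaded marrow (Ccne1 and Pold1) and 2 lower (Gins2 and Fen1). The background was 5.46% of tested genes higher and 6.4% lower, 11.9% in all, so 4 of 35 is near the share over all genes. Both lower genes share most of their exonic bases with a gene on the other strand. Of the 35 members, 22 share no exonic base with another gene, 3 share more than 50% (Fen1, Gins2 and Chaf1a), and the largest share among the others is 17.4%, in Ccne2.

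The members varied more within the unloaded group than within the control group. The coefficient of variation had a median of 3.71% over controls, with a range from 0.334% (Rfc4) to 7.71% (Fen1), and a median of 11.0% over unloaded samples, from 2.29% (Uhrf1) to 23.7% (Rrm2). No median over all tested genes is set beside these. Over all tested genes unloaded 1 also deviated most, with an SD of 0.503 against 0.341 to 0.367 for each other library. The spread of the members came with the unloaded 1 library. In it 22 members lay below the range of the other 5 libraries and 5 above, where the same held for 29.5% and 28.2% of all tested genes. Each of the other 5 libraries had 0 to 5 members below the rest, where 11.4% to 16.7% of all tested genes were, and 3 to 10 above, where 12% to 16.7% were. The 9 and 10 members above were in unloaded 2 and 3, with 14.7% and 16.7% of all tested genes. The summed level of the 35 genes was 4859 to 4903 CPM in controls, 4502 in unloaded 1, and 5091 and 5098 in unloaded 2 and 3, so that unloaded libraries lay on both sides of the controls.

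Within unloaded 1 the members did not shift as a block. Gins2 (-0.63), Rrm2 (-0.62), Mcm4 (-0.47), Rfc3 (-0.44) and Mcm2 (-0.39) had the lowest log2 deviations from the mean of the other 5 libraries. Pold1 (0.43), Chaf1a (0.40), Lig1 (0.32), Rfc2 (0.16) and Uhrf1 (0.050) were the 5 above the range. By role, the summed level of nucleotide supply genes was 572 CPM in unloaded 1 against 709 to 774 in the others. Helicase and loading genes summed to 1863 CPM against 2112 to 2219. Polymerase and clamp genes summed to 1175 CPM, within the 1175 to 1249 CPM of the other libraries, and the strand maturation pair to 246 CPM against 196 to 203. Among the ring subunits, which act in equal numbers in the helicase, Mcm6 (-0.053), Mcm7 (-0.099) and Mcm5 (-0.11) deviated less than Mcm3 (-0.33), Mcm2 and Mcm4.

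**Figure D3:**
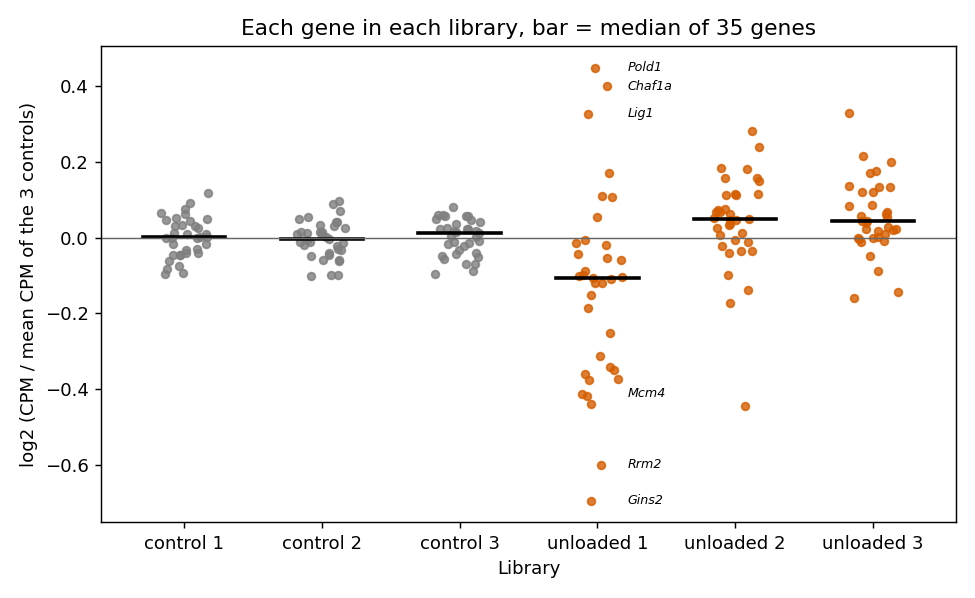
Each point is 1 of the 35 genes in 1 library, as log2 of its CPM over the mean CPM of the 3 controls, with a black bar at the median of the 35 genes and grey for controls and orange for unloaded samples. Points of unloaded 1 spread from Gins2 at the bottom to Pold1 at the top, while controls lie near 0, being part of the mean they are divided by, and in unloaded 2 the single low point is Fen1.

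The deviations were also set beside the composition and length of the transcripts. Across the 35 genes the deviation of unloaded 1 had a Pearson correlation of 0.41 with the GC content of the longest transcript, and over 15003 tested genes one of 0.28. For the other libraries the correlation across members ran from -0.56 (unloaded 3) to 0.084 (control 2), so that of unloaded 3 was larger in size. With the log2 of gene length it was 0.30 in unloaded 1, and from -0.45 (unloaded 3) to 0.065 (unloaded 2) in the others. All points of a library share its depth and scaling, and deviations of different libraries are taken against one another, so these values are descriptions. Median GC was 47.6% for the 22 genes below the range and 53.6% for the 5 above. After removal of a GC trend fitted in each library, 0 members were called by edgeR (smallest adjusted p = 0.767) and the median log2 fold change was -0.0058.

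**Figure D4:**
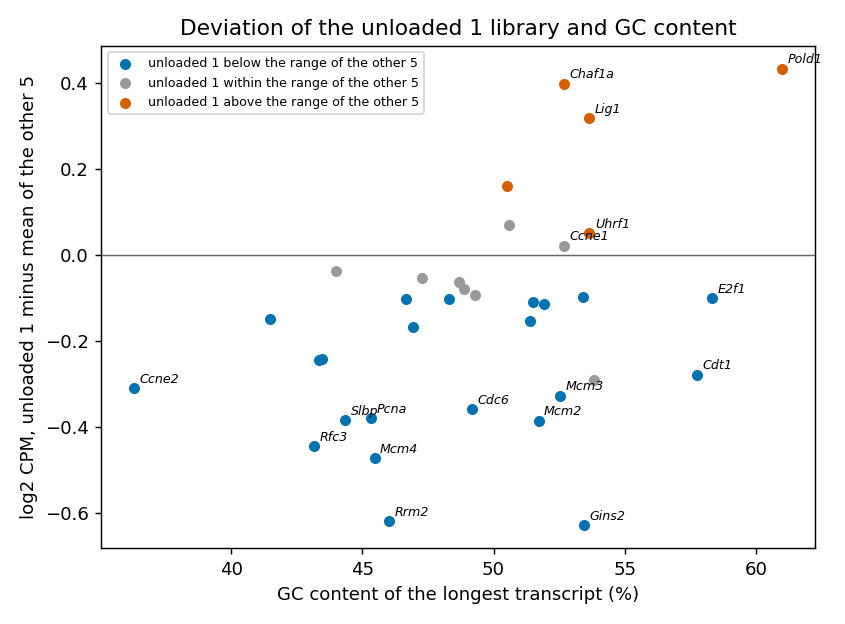
Log2 CPM of unloaded 1 minus the mean of the other 5 libraries on the vertical axis against the GC content of the longest transcript in percent, 1 point per gene, coloured by whether unloaded 1 lay below, within or above the range of the other 5. Rrm2, Mcm4 and Rfc3 lie low at a GC content under that of Pold1, Chaf1a and Lig1, while Gins2 and Cdt1 lie low at a high GC content.

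Without the unloaded 1 library 29 of 35 members had a positive fold change, against 50.5% of tested genes, and the median was 0.040, against 0.0027 over all genes. All 12 members whose sign changed went from negative to positive. Each of them was lower in unloaded 1 than in every other library, so leaving it out raised their fold changes by construction. No member was called by edgeR (background 0.0324%, smallest adjusted p = 0.372), and 2 were at an unadjusted p under 0.05, Rfc4 and Ccne1, both higher (background 3.81% higher, 5.18% lower). Both remaining unloaded values lay above all controls for 13 members (background 12.9%) and below them for 2 (13.3%), again Gins2 and Fen1. The 13 were Mcm4, Mcm6, Mcm10, Cdt1, Cdc45, Gins1, Pola1, Pold1, Rfc4, Rrm1, Rrm2, Tyms and Ccne1. Their differences were small, from 0.043 for Pold1 to 0.31 for Rfc4 on the log2 scale.

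Markers of marrow lineages were summed in the same libraries, and their signs are given beside the 51.2% of tested genes that were positive with all libraries and the 50.5% without unloaded 1. Erythroid precursor markers summed to 2605 to 2978 CPM in controls and to 2294, 3510 and 3000 CPM in unloaded 1 to 3. Of these markers 7 of 12 were positive with all libraries (median 0.016) and 12 of 12 without unloaded 1 (median 0.17). Stem and progenitor markers summed to 514 to 527 CPM in controls and to 363, 526 and 497 CPM, with 0 of 8 positive (2 of 8 without unloaded 1). In these 2 lists unloaded 1 had the lowest sum of the 6 libraries, as it did for the replication genes. It also had the lowest sum for the mature neutrophil markers below. The same held for 20 mitosis genes, at 3971 CPM in unloaded 1 against 4026 to 4384 CPM in the others. Pro-B and pre-B markers summed to 672 to 761 CPM in controls and to 603, 672 and 484 CPM, lowest in unloaded 3, with 2 of 12 positive (2 of 12 without unloaded 1). Neutrophil progenitor markers summed to 6902 to 8413 CPM in controls and to 6889, 6635 and 7189 CPM after unloading, lowest in unloaded 2, with 1 of 9 positive (3 of 9 without unloaded 1). Mature neutrophil markers summed to 17511 to 19095 CPM in controls and to 16396, 16595 and 19008 CPM in unloaded 1 to 3. Of these markers 3 of 8 were positive (4 of 8 without unloaded 1). T cell markers were at 54.1 to 70 and 59.8 to 96.0 CPM, with 6 of 7 positive (6 of 7). The part of these cell types in the values of the replication genes was not tested.

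Other genes of the replication pathway also gave no call. Of 87 further genes tested in 6 lists, 0 were called by edgeR (smallest adjusted p = 0.726), 40 had a positive fold change and the median was -0.016. At an unadjusted p under 0.05 there were 2 higher and 1 lower, beside 2.67% and 3.18% over all tested genes. The list of other origin licensing genes held the origin recognition complex genes Orc1 to Orc6 and Gmnn, Mcmbp, Mcm8 and Mcm9. It had 8 of 10 positive with a median of 0.096, and the 2 negative genes were Orc3 (-0.018) and Orc6 (-0.055). Firing and fork protection genes had 6 of 13 positive and other polymerase, clamp loader and maturation genes 9 of 18, with medians of -0.0036 and 0.0029. Other nucleotide supply genes had 4 of 10 positive, chromatin genes 4 of 10 and G1 to S control genes 9 of 26, with medians of -0.035, -0.0089 and -0.059. The 20 mitosis genes had 5 positive, with a median of -0.034 and 0 called by edgeR.

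Among these, 3 genes were at an unadjusted p under 0.05 with edgeR. Cdkn1a, which encodes the CDK inhibitor p21, was at 12.9, 10.8 and 8.81 CPM in controls and at 27.0, 13.0 and 15.4 CPM after unloading. Its log2 fold change was 0.77 ± 0.26 (edgeR adjusted p = 0.801) and 0.39 without unloaded 1, the library in which it was highest. Rbl2, which encodes the pocket protein p130 that represses E2F targets in resting cells, was at 79.5, 76.0 and 77.1 CPM in controls and at 55.1, 63.7 and 64.3 CPM (log2 -0.35 ± 0.10, edgeR adjusted p = 0.726). Without unloaded 1 it was at -0.28. Rnaseh2a, the catalytic subunit of an enzyme that removes RNA from DNA, was at 33.1, 33.8 and 36.1 CPM and at 44.6, 39.8 and 41.2 CPM (log2 0.28 ± 0.11, edgeR adjusted p = 0.804). The groups of all 3 genes did not overlap, though for Cdkn1a the lowest unloaded value and the highest control value nearly met. Over the 87 genes 5 were separated higher and 3 lower, beside 5.46% and 6.4% of all tested genes. They share 7.68% (Cdkn1a), 21.0% (Rbl2) and 14.7% (Rnaseh2a) of their exonic bases with other genes.

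Members with and without a promoter match had median fold changes close to 0. The 11 genes with an E2F match had a median log2 fold change of -0.0091 and the 18 without one a median of 0.0070, and in unloaded 1 the median deviations were -0.11 and -0.11. With and without a CCAAT box the medians of the fold change were 0.0080 and -0.032. In unloaded 1 the median deviations of these were -0.11 and -0.10. The 5 genes with a CHR match had a median fold change of -0.096 and the other 24 one of 0.027, and in unloaded 1 their median deviations were -0.29 and -0.11. These differences were not tested.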

How the data were processed

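The deposited values are unnormalized counts of reads assigned to genes, judged from their whole numbers and unequal library totals. The submitters' processing notes list CASAVA, HISAT2 2.0.5, featureCounts 1.5.0-p3 and mm10. How featureCounts treated strand and multiply aligned reads, and with which annotation, is not given in the sources used here. All 35 members have the coordinates and exonic length of GENCODE M21. Genes were kept by filterByExpr, scaled by TMM and compared with edgeR 4.0.16 (glmQLFit and glmQLFTest, R 4.3.3), with Benjamini-Hochberg adjustment over all tested genes and a threshold of 0.05. Standard errors were derived from the fold change and its F statistic, and 95% intervals use the t distribution of that test. DESeq2 1.42.0 and limma-voom 3.58.1 were alternatives, as were other scalings, filters, gene sets, each library left out and a replicate block. A GC correction and library weights were chosen after seeing the data. Log2 CPM used a prior count of 2, and RPKM divides CPM by the deposited gene length. The members, lists and tests were chosen with earlier results of these data known. Members lowest in p on either side, those at the highest and lowest levels and the most and least spread were described by library, as were up to 2 genes per direction and list with an unadjusted p under 0.05. The fits were run on simulated counts with known fold changes, in which no library was made to stand apart as unloaded 1 did. Those runs do not show how the fits handle such a library.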

Additional observations from a re-analysis of the deposited data

How the results depend on the processing

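The count of members called was 0 under every alternative run. The median log2 fold change of the members was -0.0091 in the main fit. It ran from -0.029 without unloaded 3 to 0.040 without unloaded 1. These moves were less than the pooled SD of the library medians within groups (0.060). Unloaded 1 itself widens that SD, so it is a lenient measure for the fit without that library. With library weights 27 members were positive, against 17. Members with positive fold changes numbered 15 without unloaded 2 or unloaded 3 and 29 without unloaded 1, and members with separated groups 5 to 15 over the libraries left out, against 4, the highest again without unloaded 1; fewer libraries overlap less often by construction. Over all genes DESeq2 called 35, limma-voom with library weights 8 and edgeR without a low-count filter 183. EdgeR called 5 genes without unloaded 1 and 0 with any other library left out. The replicate block gave 1 called gene and changed the call of no member. Same-numbered libraries had correlations of 0.031, -0.063 and 0.019 between their deviations, and 2 of 6 libraries correlated best with their own number. The labels do not say what the numbers mean. With so few libraries these values cannot settle whether same-numbered libraries were handled together.

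Signs of fold changes turned for 18 of 35 members, whose log2 values in the main fit ran from -0.14 for Rrm2 to 0.051 for Rpa1. With upper-quartile scaling Mcm4 was at 0.0052, Mcm5 at 0.0018, Mcm7 at 0.0090 and Rpa2 at 0.0033. With the GC trend removed Uhrf1 was at -0.0058. With library weights Mcm2 was at 0.0015, Mcm3 at 0.0037, Mcm4 at 0.12, Mcm5 at 0.015, Mcm7 at 0.020, Cdt1 at 0.048, Pcna at 0.029, Rfc5 at 0.00090, Rpa2 at 0.0027 and Slbp at 0.0024. With 1 library left out, log2 fold changes ran from -0.18 to 0.026 for Mcm2, -0.15 to 0.040 for Mcm3, -0.12 to 0.15 for Mcm4 and -0.041 to 0.025 for Mcm5. They ran from -0.042 to 0.029 for Mcm7, -0.11 to 0.067 for Cdt1, -0.16 to 0.073 for Pcna and -0.22 to 0.020 for Rfc3. The ranges were -0.10 to 0.0081 for Rfc5, -0.069 to 0.027 for Rpa2, -0.0044 to 0.10 for Rpa1 and -0.24 to 0.046 for Rrm2. They were -0.031 to 0.14 for Rrm1, -0.10 to 0.0040 for Ung, -0.17 to 0.029 for Slbp, -0.026 to 0.11 for Pola1, -0.029 to 0.057 for Prim1 and -0.0097 to 0.047 for Uhrf1. For these alternatives the cause was not tested. No member was past the threshold in any of them. Fen1 had the lowest counts of the members, with 81 to 131 per library, and most of its exonic bases are shared with other genes.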
